A study of Mus musculus with 36 samples.

Results

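The cytosolic ribosomal protein genes were followed in mouse liver across 3 diets. The set was defined by name alone, as every gene of the count table whose GENCODE symbol had the form of a cytosolic ribosomal protein (Rpl or Rps with a number and at most 1 of the suffixes a, l or x, the 3 Rplp genes, and Rpsa). It held 83 of the 53715 genes in the table, of which 80 were annotated as protein coding. Rpl32l, Rpl6l and Rps4l also fit the pattern but are annotated as pseudogenes. A filter on low counts left 74 of the 83 members among 14068 genes tested. The 9 members below the filter were Rpl10l, Rpl13, Rpl24, Rpl32l, Rpl35, Rpl35a, Rpl39l, Rpl3l and Rps4l.

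The livers came from male C57BL/6 mice aged 10 weeks, with 1 library from each of 36 numbered mice. From 4 weeks of age the mice ate a purified AIN93G diet (control, n = 12), AIN93G with red tomato powder at 10% by weight (red, n = 12), or AIN93G with tangerine tomato powder at 10% by weight (tangerine, n = 12), so every group shared the AIN93G base. Tangerine tomatoes are a variety whose lycopene is held largely in another geometric form than that of red tomatoes. Libraries are named below by diet and mouse number, for example control 137. Library totals ranged from 21290169 to 33810573 counts. The 6 hepatocyte markers (Alb, Apob, Ttr, Cps1, Fgb and Tat) were present in every library, at a sum of 80040 to 117227 CPM, the count scaled to a common library size.

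The cytosolic ribosome is built from a small and a large subunit, each a scaffold of ribosomal RNA that carries 1 copy of most of its proteins. Its protein genes are transcribed in nearly all cells, and their messenger RNAs are short, abundant and stable. Most begin with a run of pyrimidines, the 5′ terminal oligopyrimidine tract, through which the mTOR pathway and the RNA-binding protein Larp1 control their translation together when nutrients change. In the liver this machinery serves the secretion of plasma proteins.

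The pyrimidine tract is shown first because it is the sequence feature that the members are best known to share. RefSeq start-site windows (GRCm38.p6) were available for 61 of the 83 members. A tract was taken as a C followed by 6 or more C or T bases on the transcribed strand, starting and ending within 20 bases of the annotated start site. The windows below are 30 bases long, are written in the direction of transcription, and carry the tract in capitals. They belong to members described further on. The annotated start site is not marked in them. In Rpl4 and Rpl19 the tract lies wholly before that site, starting at -17 (13 bases) and -11 (11 bases) relative to it.
Rpl4, chr9:64173367-64173396, plus strand: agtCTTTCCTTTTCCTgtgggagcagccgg
Rpl19, chr11:98026907-98026936, plus strand: cttgggCTCTCCCCTTCgcagataatgggc
Rplp2, chr7:141447641-141447670, plus strand: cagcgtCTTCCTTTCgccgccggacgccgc
Rps6, chr4:86857348-86857377, minus strand: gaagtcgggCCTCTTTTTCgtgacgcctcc
Rps10, chr17:27635225-27635254, minus strand: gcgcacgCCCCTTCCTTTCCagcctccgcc
Rps26, chr10:128626487-128626516, minus strand: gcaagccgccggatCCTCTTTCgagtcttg
Such a tract lay in 35 of the 61 members (57.4%). On the opposite strand the same search found it in 9.84% of them. Among 69 mitochondrial ribosomal protein genes, whose products work in a different ribosome, 20.3% had one, and among the other genes tested here 22.85% did. Annotated start sites can be some bases off, so a window without a match says only that these letters were not found in it. Whether the messenger RNA begins with the tract in a window with a match was not tested.

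Levels per length, in CPM per kilobase of transcript, differed widely between genes whose products enter the same particle. The highest were Rplp1 (293 CPM per kb), an acidic protein of the stalk that recruits elongation factors, Rpl4 (276 CPM per kb), which lines the peptide exit tunnel, and Rps15 (268 CPM per kb), a small-subunit protein. The lowest tested members were Rpl31 (1.60 CPM per kb), which sits near the tunnel exit, Rpl38 (2.36 CPM per kb) and Rpl12 (2.43 CPM per kb), which binds at the base of the stalk. By CPM alone, 31 of the 83 members lay under 10 CPM and 10 lay at or over 100 CPM. Rpl13, Rpl24, Rpl35 and Rpl35a, which encode standard components of the large subunit, were listed at 0 in all 36 libraries. Those 0 values and the lowest levels cannot be read as the abundance of the transcript. Reads shared with near-identical copies elsewhere in the genome could have been assigned to those copies or to neither, which was not tested. Exons of other annotated genes on either strand covered 47.0% of the exon bases of Rpl24, 66.2% of Rpl35, 5.97% of Rpl13 and 0% of Rpl35a. On the same strand the share was 47.0% for Rpl24 and 0% for Rpl35. The part of such overlaps in the counts was not tested either. Across members, CPM per kb had a Spearman rho of -0.04 with the share of a transcript's 50-base stretches found in other genes. For 100-base stretches the rho was -0.16. The median share of such 50-base stretches was 44.85% in members under 10 CPM and 40.94% in the others. All 83 members enter these values, among them paralogues of other tissues such as Rpl3l and Rpl39l. Those 2 share 0% of their 50-base stretches and were near 0 in liver. The values therefore do not test whether sharing lowered the counts.

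Most members have copies elsewhere in the genome. Look-alikes, here pseudogenes by annotation or name that share at least 20% of their 30-base words with a member transcript, numbered 691 in the table, and 78 of the 83 members had at least 1 (median 5, most 63 for Rpl21). Rps3 was among the 5 members with none. Summed over all members, the genes themselves held 3568 CPM and their look-alikes 5851 CPM, and for 51 members the look-alikes held more counts than the gene. As a share of each library, members took 0.356% ± 0.038 of counts (SD, n = 36) and look-alikes 0.584% ± 0.060. Of 74 members with a counted look-alike, 40 had a coding sequence that aligned without gaps, at 90% identity or more, to the look-alike with the most counts. Look-alikes shorter than the coding sequence were not aligned, so these 40 pairs were already selected for likeness. The coding sequence was at least 99% identical in 30 of those pairs and the same base for base in 9.

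The first 60 coding bases of Rpl10a, a large-subunit protein, and of its most counted look-alike show how little separates such a pair. They are given 5′ to 3′ from the GENCODE release M21 transcripts (GRCm38), with differing bases in capitals and positions counted from 1 at the first coding base.
Rpl10a, gene at chr17:28328471-28331033, plus strand: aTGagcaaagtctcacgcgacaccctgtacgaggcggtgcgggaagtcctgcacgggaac
Rpl10a-ps1, chr1:64993951-64994604, minus strand: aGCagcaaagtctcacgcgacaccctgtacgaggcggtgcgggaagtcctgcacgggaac
Rpl10a differed from Rpl10a-ps1 by T2G and G3C, in the start codon, with 29.5 CPM on Rpl10a and 137 CPM on Rpl10a-ps1. Rpl31, the lowest member per length, held 1.68 CPM against 106 CPM on Rpl31-ps8, whose 378 coding bases are the same. Rpl5, a partner of the 5S ribosomal RNA, held 15.8 CPM against 182 CPM on Gm15500, and again no base of its 894 coding bases differed. Of the 4 standard components listed at 0, Rpl13 has an identical copy of its 636 coding bases in Gm12918 (68.9 CPM), and Rpl35a differs from Rpl35a-ps2 (25.7 CPM) at 1 of 333 coding bases. Which of a gene and its copies a shared read came from cannot be told from the table.

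**Figure D1:**
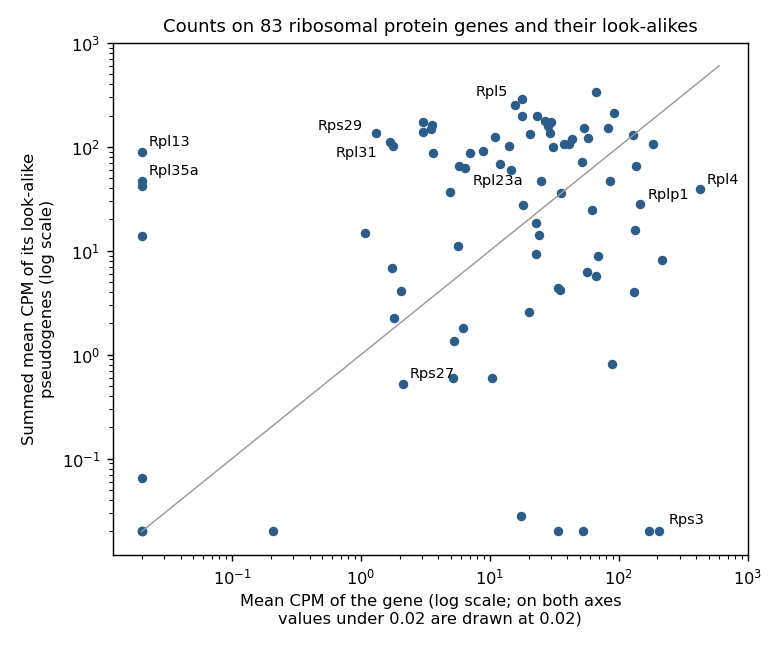
Mean CPM of each of the 83 genes (horizontal, log scale) against the summed mean CPM of its look-alike pseudogenes (vertical, log scale), with 1 point per gene and a line of equal values. The 51 genes above the line had more counts on their look-alikes than on themselves, and Rpl13 and Rpl35a stand at the left edge with 0 counts.

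The members varied together from library to library within each diet. For each library the deviations of log2 CPM from the gene means were averaged over the 74 tested members. This member score ran from -0.22 in red 170 to 0.60 in control 137, with 0.26 in tangerine 225 as the next highest. Its diet means were 0.032 ± 0.215 in control, -0.032 ± 0.154 in red and 0.00 ± 0.173 in tangerine (SD, n = 12 each), and the diets overlapped, with control 137 alone above the highest red (0.24) and tangerine (0.26) libraries. After the diet means were removed, 95.4% of the pairs of members were positively correlated across libraries (median r = 0.61). The first principal component of the members held 59.3% of the variance. Control 137 had by far the highest score on this component, followed by tangerine 225, and the values without control 137 were not computed. They were not computed for non-member genes either, so whether members varied together more closely than other genes was not tested. Because whole liver was sequenced in bulk, fewer cells of a type and less RNA per cell cannot be told apart.

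Control 137 stood apart. It had the lowest total, the largest share of counts on members (0.494%) and on look-alikes (0.807%), and the highest value of the 36 libraries in 55 of the 74 tested members. Its summed Kupffer cell markers (7 of 7 genes detected) were 105 CPM, against a control median of 232 CPM. Its sinusoidal endothelial markers summed to 72.4 CPM, with Clec4g at 0 and the other 5 detected, against a control median of 200 CPM. Other marker sets were not low in the same way. Hepatocyte markers summed to 108021 CPM (control median 107163) and stellate markers to 189 CPM (218). T cell markers, at 4.10 CPM (2.41), and erythroid markers, at 625 CPM (360), lay above the control median. The part of these differences in the member score was not tested.

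**Figure D2:**
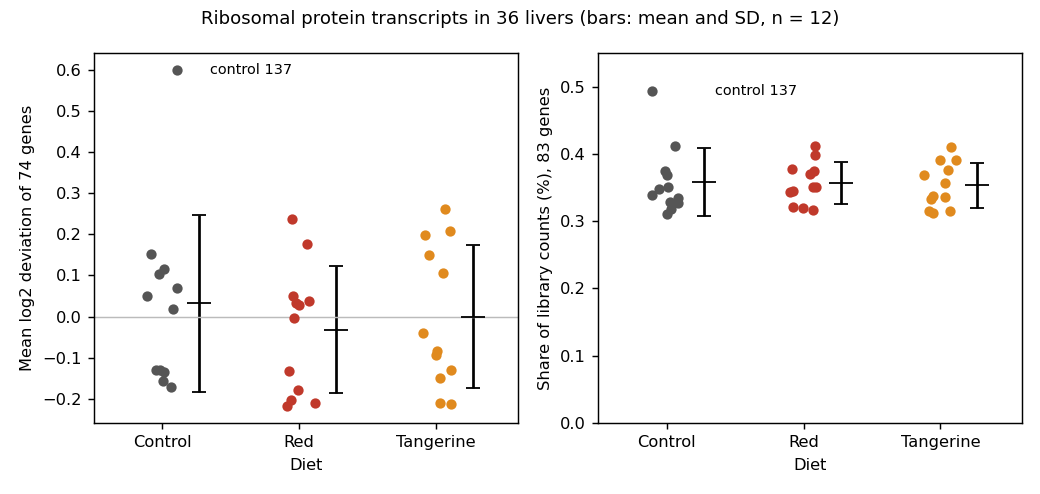
Member score (left, mean log2 deviation of the 74 tested genes) and share of library counts on the 83 genes (right, in percent) by diet, with 1 point per library and bars for the mean and SD of 12 libraries. The diets overlap, and control 137 lies above every other library in both panels at 0.60 and 0.494%.

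The member score followed the transcript length profile of the library. Members are short, with a median transcript of 882 bases against 2739 bases for the other tested genes, and their median GC content of 51.8% was close to the 49.8% of the other genes. For each library, the deviations of the tested non-member genes were regressed on log2 transcript length and, separately, on transcript GC. The member score correlated with the length slope at r = -0.94 (Spearman rho = -0.91, n = 36 libraries), at -0.91 without the 2 libraries with the most extreme slopes, and at -0.96, -0.93 and -0.91 within control, tangerine and red. With the GC slope it correlated less closely (r = 0.57, rho = 0.45), and without the 2 most extreme libraries it went from 0.63 to -0.05 in control, from 0.76 to 0.63 in tangerine and from 0.56 to 0.77 in red. After the length slope was removed from the score, its correlation with the GC slope was 0.03. Without the 2 libraries with the most extreme GC slopes that correlation was 0.21. Control 137 had the lowest length slope (-0.168) and the highest GC slope (0.353) of the 36 libraries. All slopes and scores come from the same libraries and share their depth, so these coefficients describe the libraries and carry no test.

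Other sets of genes moved with the members. The sets can overlap, look-alikes can share reads with members, and all are among the non-member genes behind the length slope. The mean deviation of 628 short protein-coding genes under 1000 bases that are no members correlated with the member score at r = 0.86. For 72 mitochondrial ribosomal protein genes the value was 0.90 (rho = 0.85), with 0.97 in control, 0.94 in tangerine and 0.70 in red. The value in red became 0.53 without the 2 most extreme libraries. The mean deviation of 226 tested look-alikes correlated with the member score at 0.96 (rho = 0.95). Total counts correlated with it at r = -0.16 over all libraries (-0.29 in control, -0.40 in tangerine and 0.27 in red), and a component of 11 circadian clock genes at -0.04 (0.09, -0.14 and -0.54 in the same order). The share of counts on the mitochondrial genome correlated with it at -0.40 over all libraries and at -0.71 in red, which became -0.37 and -0.65 without the 2 most extreme libraries. Sinusoidal endothelial markers tracked it at r = -0.66, which became -0.36 without the 2 most extreme libraries. The within-diet SD of the member score was 0.182, and it was 0.063 after the length slope was removed. For single members the median within-diet SD of log2 CPM went from 0.226 to 0.151.

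**Figure D3:**
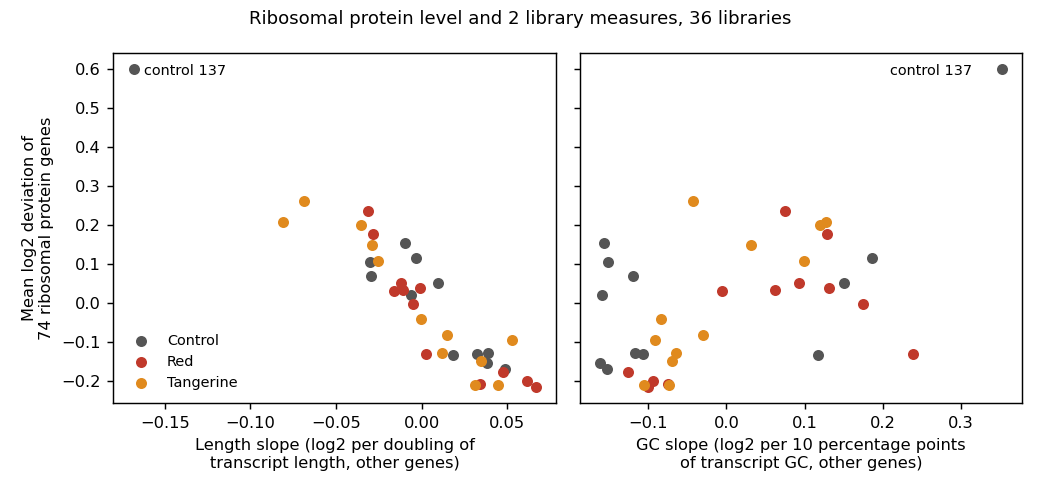
Member score of each of the 36 libraries (vertical, log2) against the length slope (left) and GC slope (right) of the tested non-member genes in that library, with points coloured by diet. The score falls along the length slope in all 3 diets (r = -0.94) and is more scattered along the GC slope (r = 0.57).

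Not every member followed the length slope to the same degree. The correlation within diets was below 0 in 74 of 74 tested members and ran from -0.89 to -0.15. Rpl4, Rps3 (at the messenger RNA entry site) and Rpl7 had the smallest within-diet SD of log2 CPM (0.123, 0.138 and 0.132). Rps27 (0.654), Rpl38 (0.424) and Rps29 (0.423) had the largest, at mean levels of 2.12, 1.08 and 1.30 CPM, where few counts support each value. Rps27 ran from 0.97 to 3.30 CPM in control, from 0.93 to 4.22 CPM in red and from 0.92 to 3.52 CPM in tangerine, with medians of 1.81, 1.87 and 1.69 CPM. Its log2 fold changes against control were 0.17 ± 0.26 (SE) in red and 0.11 ± 0.26 in tangerine, both within the spread.

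A second pattern was held by 2 libraries of different diets, control 245 and red 177. They scored 14.0 and 13.1 on the second principal component, which held 16.6% of the variance, and the next library scored 1.26. Their deviations from the diet means correlated with each other at r = 0.89 across the 74 members, where the highest value among pairs of the other 34 libraries was 0.74. Across tested non-member genes the pair correlated at 0.44, below the highest other pair (0.52). The 2 libraries were chosen by a component computed from these same members, so a closer match over members follows in part from that choice. Genes are also not independent replicates, so these values are descriptions.

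In both of these libraries some members were high and others low. Rps26, a small-subunit protein at the messenger RNA exit, lay 1.21 above its diet mean in control 245 and 0.85 above it in red 177 on the log2 scale. Rpsa, a small-subunit protein once named for the laminin receptor, lay 0.94 and 0.69 above, and Rpl23 lay 0.91 and 0.56 above. In contrast Rpl30, a large-subunit protein, lay at -1.13 and -1.14, Rpl39, a very short protein of the exit tunnel, at -0.91 and -1.21, and Rps21 at -0.81 and -0.85. In all, 3 members were above and 8 below every other library in both, which is 14.9% of members against 7.57% of tested non-member genes. The mean deviation of a member in the 2 libraries had a rho of 0.20 with its transcript GC and 0.09 with its length, and one of 0.33 with the mean deviation of its look-alikes (69 members). Over non-member genes the rho with GC was 0.39, and across libraries the second component correlated with the GC slope at r = 0.47 within diets. The GC slopes of control 245 (0.186) and red 177 (0.238) were the highest after that of control 137 (0.353). Rps26, Rpsa, Rpl23, Rpl30, Rpl39 and Rps21 were chosen here after their values were seen. So were the 2 libraries, by their second component over these members. The larger share of members than of non-member genes outside the other libraries is therefore no separate observation.

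**Figure D4:**
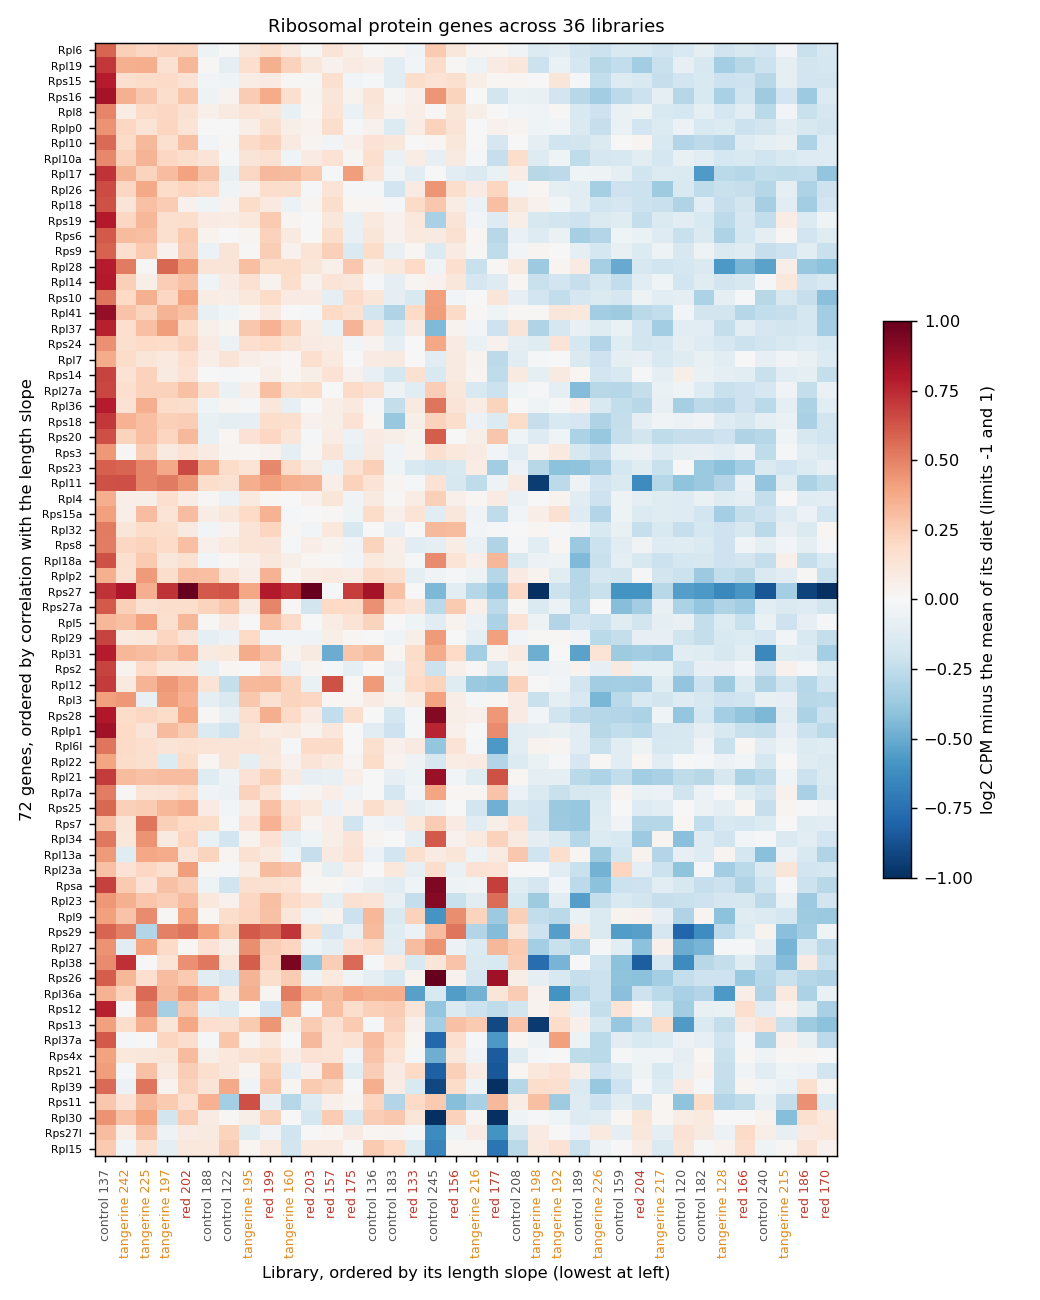
Log2 CPM of 72 of the 74 tested members (rows) minus the diet mean in 36 libraries (columns, ordered by length slope, names coloured by diet), on a colour scale from -1 to 1. Rows change from red to blue from left to right, and the columns of control 245 and red 177 are red in some members (Rps26, Rpsa, Rpl23) and blue in others (Rpl30, Rpl39, Rps21).

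Against control, the red tomato diet gave no member past the threshold. With edgeR's quasi-likelihood test and Benjamini-Hochberg adjustment over all tested genes, 0 of 74 members were called, where 0.149% of all tested genes were (21 genes). At an unadjusted p under 0.05 there were 3 of 74 members, all lower in red, beside 13.3% of all tested genes, and DESeq2 also called 0 members. The fold changes leaned low, with 64 of 74 members below control (51.5% of all tested genes were below) and a median log2 fold change of -0.069 against -0.0047 for all tested genes. Genes like the members leaned the same way in red, with 192 of 226 look-alikes (median -0.067), 56 of 72 mitochondrial ribosomal protein genes (median -0.048) and 443 of 628 short non-member genes (median -0.054) lower. These sets can overlap, and look-alikes can share reads with members, so they are not independent observations. Without control 137 the median of the members was -0.0087 with 45 of 74 lower, and without control 137, control 245 and red 177 it was 0.013 with 27 of 74 lower. With limma-voom and library weights together it was 0.036 with 24 of 74 lower and 1 call (Rpl30), and with DESeq2 it was -0.067.

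Rpl23a, which docks the signal recognition particle at the tunnel exit, had the smallest p. It ran from 5.27 to 8.56 CPM in control (median 6.98) and from 4.76 to 7.69 CPM in red (median 5.47). The groups overlapped, and the control median was exceeded in 2 of 12 red libraries. Its log2 fold change was -0.27 ± 0.09 (SE), with an adjusted p = 0.142 in edgeR. Over 53 alternatives the adjusted p ran from 0.0345 to 0.537, the highest being the fit on counts summed with its look-alikes, where the log2 fold change was -0.09.

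Rpl30 ran from 2.36 to 7.21 CPM in control (median 5.46) and from 1.90 to 5.10 CPM in red (median 4.65). The groups overlapped, but no red library exceeded the control median, and the lowest values of these diets came from control 245 and red 177. Its log2 fold change was -0.30 ± 0.12 (SE; adjusted p = 0.291 by edgeR). Without those 2 libraries it was again -0.30 (adjusted p = 0.0798, within a range of 0.0474 to 0.730 over the alternatives), and with GC and length slopes in the model it was -0.11. Rpl12 ran from 2.48 to 5.35 CPM in control (median 3.01) and from 2.05 to 4.23 CPM in red (median 2.53), the control median being exceeded in 4 of 12 red samples. The log2 fold change of Rpl12 was -0.28 ± 0.13 (SE; adjusted p = 0.358 by edgeR).

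Against control, the tangerine tomato diet also gave no call. Of 74 members 0 passed, beside 0.0142% of all tested genes (2 genes), and 0 had an unadjusted p under 0.05, beside 5.47% of all tested genes. DESeq2 called 0 as well. The median log2 fold change was -0.035 (all tested genes -0.012), with 53 of 74 members lower (55.4% of all tested genes). Without control 137 the median turned to 0.031 with 26 of 74 lower, without control 245 it was -0.014, and without control 137, control 245 and red 177 it was 0.050 with 18 of 74 lower. With limma-voom and library weights it was 0.013 with 30 of 74 lower. The tangerine and red comparisons share the same 12 control libraries, control 137 among them, so their similar lean is not independent.

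The 3 members with the smallest p in this comparison were Rpl27, Rpl9 and Rps12. Rpl27, a large-subunit protein, ran from 2.63 to 5.16 CPM in control (median 3.71) and from 2.32 to 4.48 CPM in tangerine (median 3.20), with 4 of 12 tangerine libraries above the control median. The log2 fold change of Rpl27 was -0.22 ± 0.11 (SE; adjusted p = 0.934 by edgeR). Rpl9 had medians of 3.28 CPM in control and 2.75 CPM in tangerine, a log2 fold change of -0.20 ± 0.12. Rps12 had medians of 2.00 and 1.88 CPM, a log2 fold change of -0.18 ± 0.11. In all 3 genes the ranges of the diets overlapped.

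Between the tomato diets, 0 of 74 members differed, beside 1.71% of all tested genes (241 genes). At an unadjusted p under 0.05 there was 1 of 74 members, lower in tangerine, beside 15.1% of all tested genes, and DESeq2 called 0 members. Members leaned higher in tangerine, with 20 of 74 lower (51.5% of all tested genes) and a median log2 fold change of 0.031 against -0.0046 for all tested genes. The median ranged from 0.0049 without tangerine 225 to 0.055 without red 202, and with limma-voom and library weights it was -0.029 with 50 of 74 lower and 1 call (Rps13). With the clock component as covariate it was 0.076, and without control 137, control 245 and red 177 it was 0.038. Red 186 had 168 CPM of T cell markers (6 of 6 detected) and 29.3 CPM of adipose markers (5 of 5), where the next highest libraries had 4.43 and 7.66 CPM, and tangerine 216 had 11.1 CPM of pancreas markers where the next had 0.363. Without these 2 libraries the median was 0.016 with 27 of 74 lower, and without red 186 alone it was 0.014.

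Rps13, a small-subunit protein, had the smallest p of this comparison. It ran from 0.99 to 2.62 CPM in red (median 2.08) and from 0.75 to 1.97 CPM in tangerine (median 1.69). No tangerine library exceeded the red median, though the ranges overlapped. The log2 fold change was -0.34 ± 0.14 (SE; adjusted p = 0.225 by edgeR, with a range of 0.0206 to 0.683 over 52 alternatives). Its look-alikes held 102 CPM beside 1.79 CPM on the gene. On the summed counts the direction was the opposite, with a log2 fold change of 0.08. Rps27l and Rpl10 followed, at log2 fold changes of 0.13 ± 0.08 and 0.14 ± 0.08 in tangerine against red (edgeR adjusted p = 0.405 and 0.422).

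**Figure D5:**
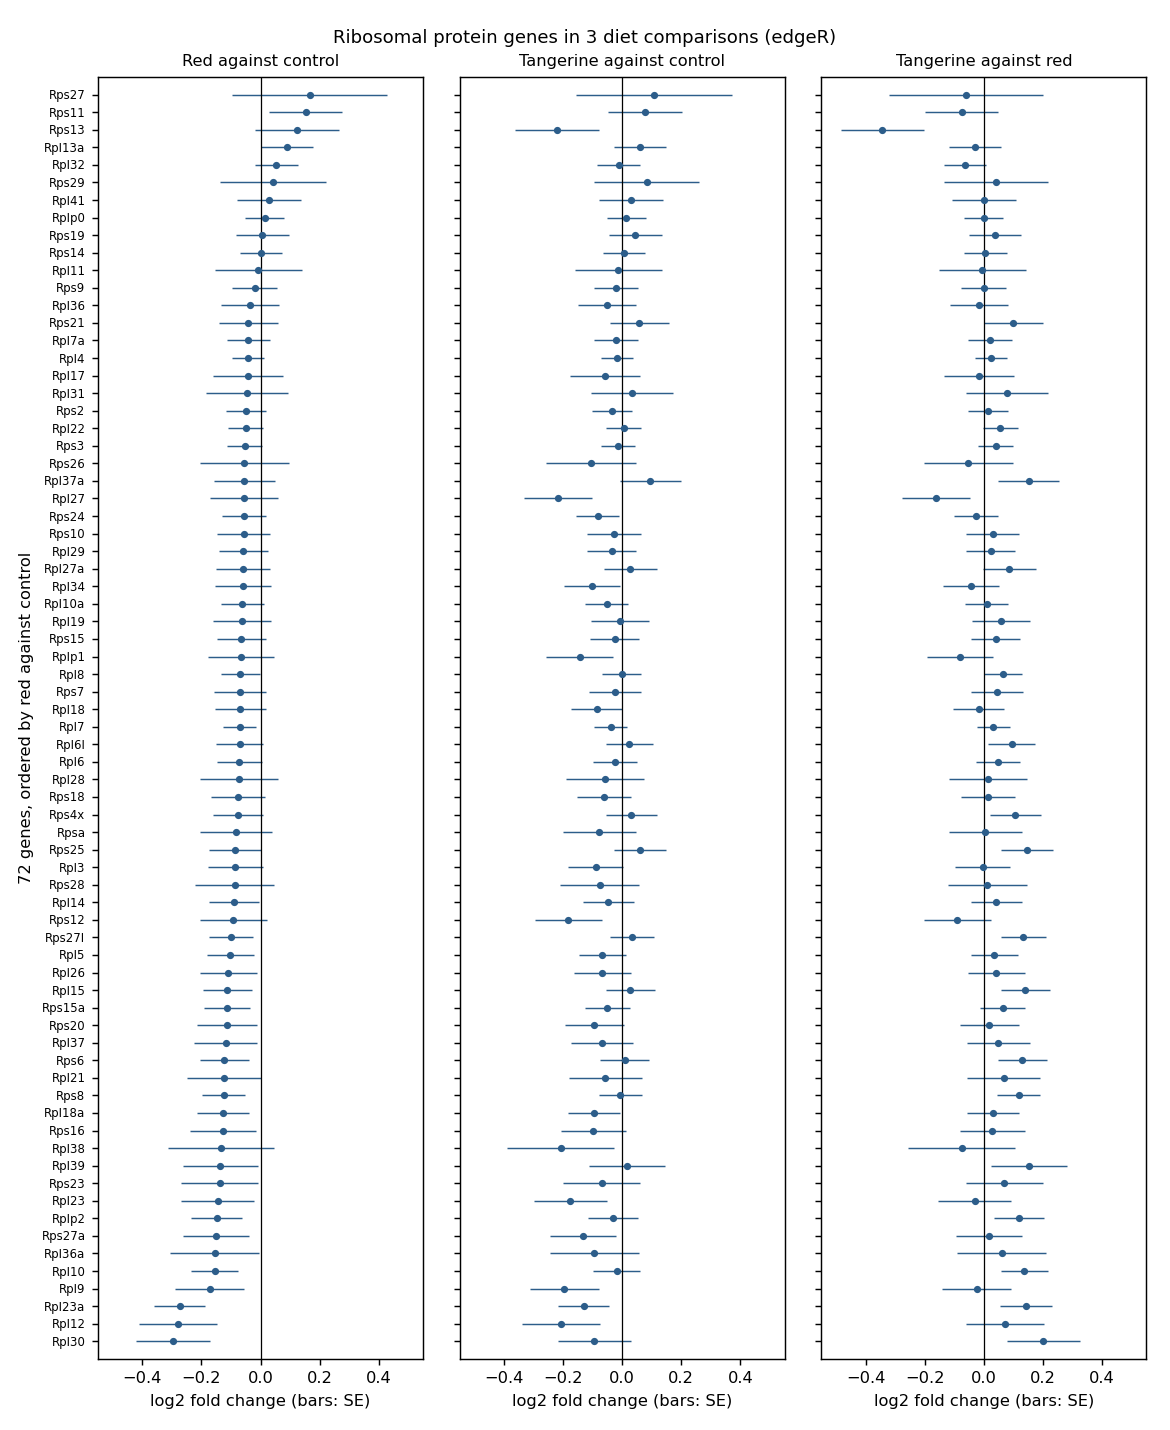
Log2 fold changes of 72 of the 74 tested members in the 3 comparisons, with bars for the standard error, in 1 order set by red against control. Most points in the left panel lie below 0 (62 of 72), and 0 members passed the adjusted threshold in any panel.

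Adding the GC and length slopes of the libraries as covariates narrowed the errors of the members. The median standard error of a member went from 0.091 to 0.061 in red against control. The median log2 fold changes became -0.027 (45 of 74 lower) for red against control, -0.025 (51 of 74 lower) for tangerine against control and -0.0038 (39 of 74 lower) for tangerine against red, and 0 members were called in each. Here the smallest adjusted p of a member was 0.0960 (Rpl23a, red against control) and 0.0658 (Rps13, tangerine against red). With the GC slope alone the lean in red against control grew to a median of -0.13 with 70 of 74 lower and 1 call, Rpl23a, and 30 of 74 members had an unadjusted p under 0.05, beside 16.7% of all tested genes in that fit. With the length slope alone it was -0.015 with 50 of 74 lower and 0 calls.

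By place in the ribosome, the large subunit had a median log2 fold change of -0.070 in red against control (39 of 43 lower) and the small subunit one of -0.068 (25 of 31 lower). In the stalk, Rplp0 ran from 161 to 250.3 CPM in control (median 179), from 160.2 to 209.7 CPM in red (median 191) and from 158 to 215 CPM in tangerine (median 184), with log2 fold changes of 0.01 ± 0.07 in both comparisons with control. Rplp1 had medians of 136, 147 and 134 CPM in control, red and tangerine, and its highest library, at 265 CPM, was control 137. Rplp2 had medians of 18.4, 16.3 and 17.6 CPM. Its log2 fold change of -0.15 ± 0.08 in red did not pass (edgeR adjusted p = 0.458).

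Rpl5 and Rpl11 carry the 5S ribosomal RNA and, when free, bind the p53 regulator Mdm2. Rpl5 had medians of 15.9, 15.0 and 14.9 CPM in control, red and tangerine, and Rpl11 of 3.66, 3.39 and 3.02 CPM. Their log2 fold changes in red were -0.10 ± 0.08 and -0.01 ± 0.15, and in tangerine -0.07 ± 0.08 and -0.01 ± 0.15. Of the 8 listed proteins of the exit tunnel, 7 were tested and 0 were called. Rpl4 ran from 362 to 549 CPM in control (median 412), from 384 to 453 CPM in red (median 426) and from 368 to 476 CPM in tangerine (median 428), with log2 fold changes of -0.04 ± 0.05 and -0.02 ± 0.05 against control. Rpl19, Rpl26 and Rpl17 had log2 fold changes of -0.06, -0.11 and -0.04 in red, and Rpl31 and Rpl39 of -0.05 and -0.14.

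The list of genes mutated in Diamond-Blackfan anaemia, an inherited failure of red cell production, held 9 members, of which 8 were tested and 0 called. Their median log2 fold change was -0.057 in red and -0.033 in tangerine against control. Rps19, the gene most often involved, had medians of 22.7, 23.3 and 24.3 CPM in control, red and tangerine and log2 fold changes of 0.01 ± 0.09 and 0.04 ± 0.09 against control. Rps24 (55.1, 57.5 and 56.9 CPM), Rps10 (10.4, 10.5 and 10.5 CPM) and Rps7 (10.4, 10.4 and 9.96 CPM) had close medians in control, red and tangerine. Rps26 spread most, from 26.3 to 80.6 CPM in control, where control 245 was highest. Rps6, the target of the S6 kinases, ran from 46.0 to 88.7 CPM in control (median 56.9), from 44.0 to 64.2 CPM in red (median 52.2) and from 47.3 to 72.7 CPM in tangerine (median 59.2), with log2 fold changes of -0.12 ± 0.08 and 0.01 ± 0.08 against control. Rps27a, made as a fusion with ubiquitin, had medians of 5.18, 4.90 and 5.02 CPM.

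Paralogues known from other tissues were mostly at or near 0. Rpl3l, a muscle form of Rpl3, averaged 0.209 CPM. Rpl39l, a testis form of Rpl39, had 3 counts over all 36 libraries. Rpl10l, the testis retrogene of Rpl10, and Rps4l were listed at 0 in every library, and a count of 0 allows up to 3 counts, or 0.0887 to 0.141 CPM by library (counting error only). Rps27l, a paralogue of Rps27 that p53 induces, was by contrast at 66.8 CPM. It had medians of 69.0, 64.9 and 67.8 CPM in control, red and tangerine. Of ribosomal proteins outside the naming pattern, Rack1 averaged 263 CPM, Rps3a1 59.5 CPM, Fau 17.9 CPM and Rpl36al 0.699 CPM, and none of these 4 was called.

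The genes that build and regulate the ribosome were examined beside its proteins. Of 30 ribosome biogenesis factors 0 were called in the 3 comparisons, and the median log2 fold change was -0.10 in red (26 of 30 lower) and -0.10 in tangerine (29 of 30 lower) against the shared controls. At an unadjusted p under 0.05, 4 were lower in red (6.63% of all tested genes) and 9 in tangerine (3.16% of all tested genes). The counts of lower genes were 24 and 28 without control 137 and 21 and 24 without all 3 libraries. Nop56, a core protein of box C/D particles that guide ribosomal RNA methylation, ran from 9.36 to 19.8 CPM in control (median 12.4) and from 8.52 to 15.3 CPM in tangerine (median 10.8), with a log2 fold change of -0.35 ± 0.10 (SE; adjusted p = 0.587 by edgeR). Nop56 was called in this comparison in 1 of 53 alternatives. Next by p were Brix1 at -0.19 ± 0.07 in tangerine, and Rrp9 and Gnl3 at -0.26 ± 0.11 each in red. Of 13 translation factors and other genes whose messenger RNAs are known for such tracts 0 were called, with median log2 fold changes of -0.042 in red and -0.0081 in tangerine against control. Among them Eif4b and Hnrnpa1 had log2 fold changes of 0.11 and -0.23 in red, and Eef2 and Eif3e of 0.10 and -0.07 in tangerine, all within the spread.

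Among 16 growth regulators the only call was 1 gene in tangerine against red, beside 1.71% of all tested genes (241 genes). That gene was Larp1, lower in tangerine than in red. It ran from 126 to 162 CPM in control (median 139), from 144 to 171 CPM in red (median 159) and from 121 to 156 CPM in tangerine (median 136). Its log2 fold change was -0.19 ± 0.05 (SE; adjusted p = 0.0275 by edgeR), though the ranges overlapped. In red against control it was 0.16 ± 0.05 (adjusted p = 0.101 by edgeR), with a call in 3 of 53 alternatives. The call in tangerine against red held in 42 of 53 alternatives, with an adjusted p from 0.0034 to 0.387. The highest came with the circadian clock component as covariate, where 0 of all tested genes were called in this comparison. The clock component had means of 0.83 ± 2.77 in control, -2.45 ± 2.25 in red and 1.62 ± 2.02 in tangerine (SD, n = 12 each). Its part in the Larp1 call was not tested. The call was lost in 6 of the 36 omissions of 1 library, namely of red 156 or 202 or of tangerine 215, 216, 217 or 242. Eif4e, the cap-binding protein, was at a median of 30.3 CPM in control and 24.9 CPM in red, with a log2 fold change of -0.23 ± 0.07 (edgeR adjusted p = 0.106). Eif4e was called in this comparison in 5 of 53 alternatives. Rptor, the mTOR complex subunit, and Maf1, a repressor of RNA polymerase III, had log2 fold changes of 0.13 ± 0.05 and 0.11 ± 0.06 in tangerine against control, and Rheb, which activates mTOR, of 0.09 ± 0.05 in tangerine against red, none past the threshold.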

How the data were processed

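The deposited table held raw counts of reads per gene for 36 libraries, per the file headers with no normalization. The submitters' processing notes name FastQC, Trimmomatic, edgeR and the build GRCm38.p6. Aligner, counting program, strand setting, annotation release and the treatment of reads shared between copies are not given in the sources used here. Symbols came from GENCODE release M21 by Ensembl identifier (53620 of 53715 matched).

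Counts were filtered with filterByExpr, given TMM factors, and tested with edgeR 4.0.16 (quasi-likelihood F test, robust, all 36 libraries, no covariates), with Benjamini-Hochberg adjustment over 14068 genes and a threshold of 0.05. Standard errors are the log2 fold change over the square root of F. CPM are scaled by the same factors, and a prior count of 2 was added before taking log2. The test was checked on simulated counts, drawn independently with the same dispersion for every gene and without length or GC effects of libraries. That check therefore does not cover the library effects described above. DESeq2 1.42.0, limma 3.58.1 and sva 3.50.0 served alternatives, which also included other normalizations and filters, library slopes, clock and mouse number covariates, and omitted libraries. No 2 libraries were duplicates (630 pairs).

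Members and gene lists were chosen with earlier results of these data known. Genes were named by a rule: all calls, the 3 smallest p per comparison, the 3 highest and lowest per length, the 3 largest and smallest SDs, and the lists by role. Some genes and sequences are not reported here, and the genes among them are not drawn by name.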

Additional observations from a re-analysis of the deposited data

How the results depend on the processing

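The count of called members was 0 in each comparison with any 1 of the 36 libraries left out (lowest 0, highest 0). It was 1 in red against control with limma-voom and library weights, with the GC slope and with surrogate variables, and 1 in tangerine against red with limma-voom, and 0 under the other alternatives. Over the omissions of 1 library, the median log2 fold change of the members ran from -0.0908 to -0.0087 in red against control, from -0.0566 to 0.0309 in tangerine against control and from 0.0049 to 0.0553 in tangerine against red. Over the 17 other alternatives it ran from -0.128 to 0.036, from -0.036 to 0.050 and from -0.029 to 0.095, so its direction was not kept in any comparison; the cause was not tested. Summing each member with its look-alikes gave 78 tested genes, 0 calls and medians of -0.061, -0.012 and 0.047. The length slope alone, the sums with look-alikes, and the omissions of control 245 with red 177 and of these with control 137 were alternatives chosen after seeing the data. The number of all genes called in red against control was 21 with edgeR, 172 with DESeq2 and 1504 with limma-voom. No paired analysis was possible because no mouse number is shared between diets.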
